A study of Mus musculus with 12 samples.

Results

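The genes described here are 10 genes of iron uptake, storage and export, out of 56748 genes in the deposited expression table of mouse kidney. Their rows were taken by symbol, and the genes were chosen with earlier results of these data known. Fth1 and Ftl1 encode the heavy and light chains of ferritin, and Ncoa4 encodes the receptor that delivers ferritin to the lysosome. Tfrc encodes the transferrin receptor, and Slc11a2 (DMT1) and Slc39a14 (ZIP14) encode iron importers. Slc40a1 encodes ferroportin, the iron exporter, and Cp encodes ceruloplasmin, a copper enzyme that oxidises iron at the cell surface and in plasma. Aco1 and Ireb2 encode the iron regulatory proteins IRP1 and IRP2. Each of the 10 symbols matched 1 row, and all 10 genes passed the filter of a mean of at least 1 FPKM (read fragments per length of the gene and depth of the library) over the 12 libraries, as did 12868 genes in all.

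The libraries came from male mice aged 8 to 12 weeks and formed 4 groups of 3: cKO IR, cKO sham, WT IR and WT sham. In cKO mice Krt20, which encodes a keratin, was knocked out conditionally in proximal tubule cells of the kidney, and WT mice were wild type; the Cre line is not given in the sources used here. In IR, ischemia/reperfusion, clamping stopped the blood supply of both kidneys for 30 min, and tissue was taken after 24 h of reperfusion. Sham mice had the operation without clamping, so all 4 groups shared anesthesia with pentobarbital and surgery. Nothing in the labels says that the 3 libraries of a group came from separate animals, so the spread behind the p-values may be technical.

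Iron enters most cells bound to transferrin through the transferrin receptor, leaves the endosome through DMT1, is stored inside ferritin and leaves the cell through ferroportin. Ferritin iron becomes available again when NCOA4 carries ferritin to the lysosome. IRP1 and IRP2 set these levels after transcription: in iron-poor cells they bind hairpins called iron-responsive elements (IREs), which blocks translation when the hairpin lies in a 5′ UTR and protects the messenger RNA from decay when it lies in a 3′ UTR. In the kidney, proximal tubule cells take up filtered iron, and free iron drives the lipid peroxidation that defines ferroptosis, the form of cell death named in the title of the series. RNA levels therefore do not give the amount of ferritin or ferroportin protein, which was not measured here.

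The hairpins are shown because IRP1 and IRP2 act through them on the members that carry one. The transcripts of GENCODE mouse release M21 (GRCm38) were searched on the sense strand for a C, 5 bases of stem, the loop CAGTGN and 5 bases able to pair with the stem, G-T pairs included. Under this rule 4 of the 10 genes held a site. Each line gives 30 bases, 5′ to 3′, with the loop in capitals.
Fth1, 5′ UTR, chr19:9982732-9982761, plus strand: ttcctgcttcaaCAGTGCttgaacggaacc
Ftl1, 5′ UTR, chr7:45459778-45459807, minus strand: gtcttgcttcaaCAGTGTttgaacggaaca
Slc40a1, 5′ UTR, chr1:45925464-45925493, minus strand: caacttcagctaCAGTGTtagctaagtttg
Tfrc, 3′ UTR, site 1, chr16:32631219-32631248, plus strand: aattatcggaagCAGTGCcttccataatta
Tfrc, 3′ UTR, site 2, chr16:32631598-32631627, plus strand: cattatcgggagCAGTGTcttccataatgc
Tfrc, 3′ UTR, site 3, chr16:32631663-32631692, plus strand: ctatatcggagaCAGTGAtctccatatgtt
Tfrc, 3′ UTR, site 4, chr16:32631710-32631739, plus strand: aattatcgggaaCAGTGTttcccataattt
The ferritin chains and ferroportin, which store and export iron, carried their site before the coding sequence, while Tfrc, which brings iron in, carried 4 sites behind it. A match occurred in the 5′ UTR of 31 of 21901 protein-coding genes (0.1415%) and in the 3′ UTR of 129 (0.589%). Slc11a2, Ireb2, Aco1, Ncoa4, Cp and Slc39a14 held no match in any transcript region, which says only that this pattern is not there. The rule required all 5 stem pairs without a break, so a hairpin with a bulge or mismatch in that stem would be missed. The search therefore does not show that these genes lack an IRE, or that Tfrc has only the 4 found.

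Ferritin genes can also be switched on by NRF2 through antioxidant response elements, so the promoters were searched as well. The motif TGAC, then NNN, then GC, on either strand, occurred in 4071 of 32851 RefSeq promoters of 300 bases (GRCm38.p6; 12.39%). Of the 7 members with a promoter in that table, 1 held the motif, Ncoa4, in 1 of its 3 promoters. The 12.39% counts promoters and the 1 of 7 counts genes, some with several promoters, so they are not like measures. The window ends close to the transcription start, and more distant elements were not searched.

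The 12 libraries held 13187531 to 15962303 reads, recovered from the deposited values, and mitochondrial genes took 7.29% to 10.4% of them. Between 367 and 131023 reads stood behind each value of the 10 genes. Krt20 had 869, 1061 and 1399 reads in cKO IR, 1, 0 and 0 in cKO sham, 2751, 1844 and 1714 in WT IR and 1, 0 and 4 in WT sham, so that the transcript was still counted in whole cKO kidneys after IR, at a lower level than in each WT IR library. Retinas are named in the extraction protocol, but the tissue field says kidney. The 12 proximal tubule markers summed to 10069 to 12977 FPKM in cKO IR, 21201 to 27658 in cKO sham, 7677 to 17755 in WT IR and 26568 to 28980 in WT sham. Most of each sum was Kap, so the sums do not show how far the other markers moved. Of 9 retina genes, 3 were at 0 in all libraries and the sum of all 9 was at most 5.50 FPKM. On the first principal component, WT IR 2 stood apart from the other WT IR libraries, at 9.84 against 34.9 and 42.1, and results that change without one library are given with that value.

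After IR, 9 of the 10 genes passed the test in both genotypes, in limma with Benjamini-Hochberg adjustment over all 12868 genes. Both ferritin chains, the transferrin receptor, ferroportin and ceruloplasmin rose, and Ncoa4, Slc11a2 and both iron regulatory proteins fell. Slc39a14 did not pass. Over all tested genes, 50.8% passed for cKO IR against cKO sham, 27.8% higher and 23.1% lower. For WT IR against WT sham 42.2% passed, 22.6% higher and 19.5% lower, so a gene that passes is common in these comparisons. The libraries of the groups did not overlap for 60.4% of all tested genes in cKO and 52.9% in WT. The median log2 difference of the 10 genes was 0.33 in cKO and 0.47 in WT, beside 0.02 and 0.01 over all tested genes. All differences below are on the scale of log2(FPKM + 1), which understates the change of genes with low FPKM.

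**Figure D1:**
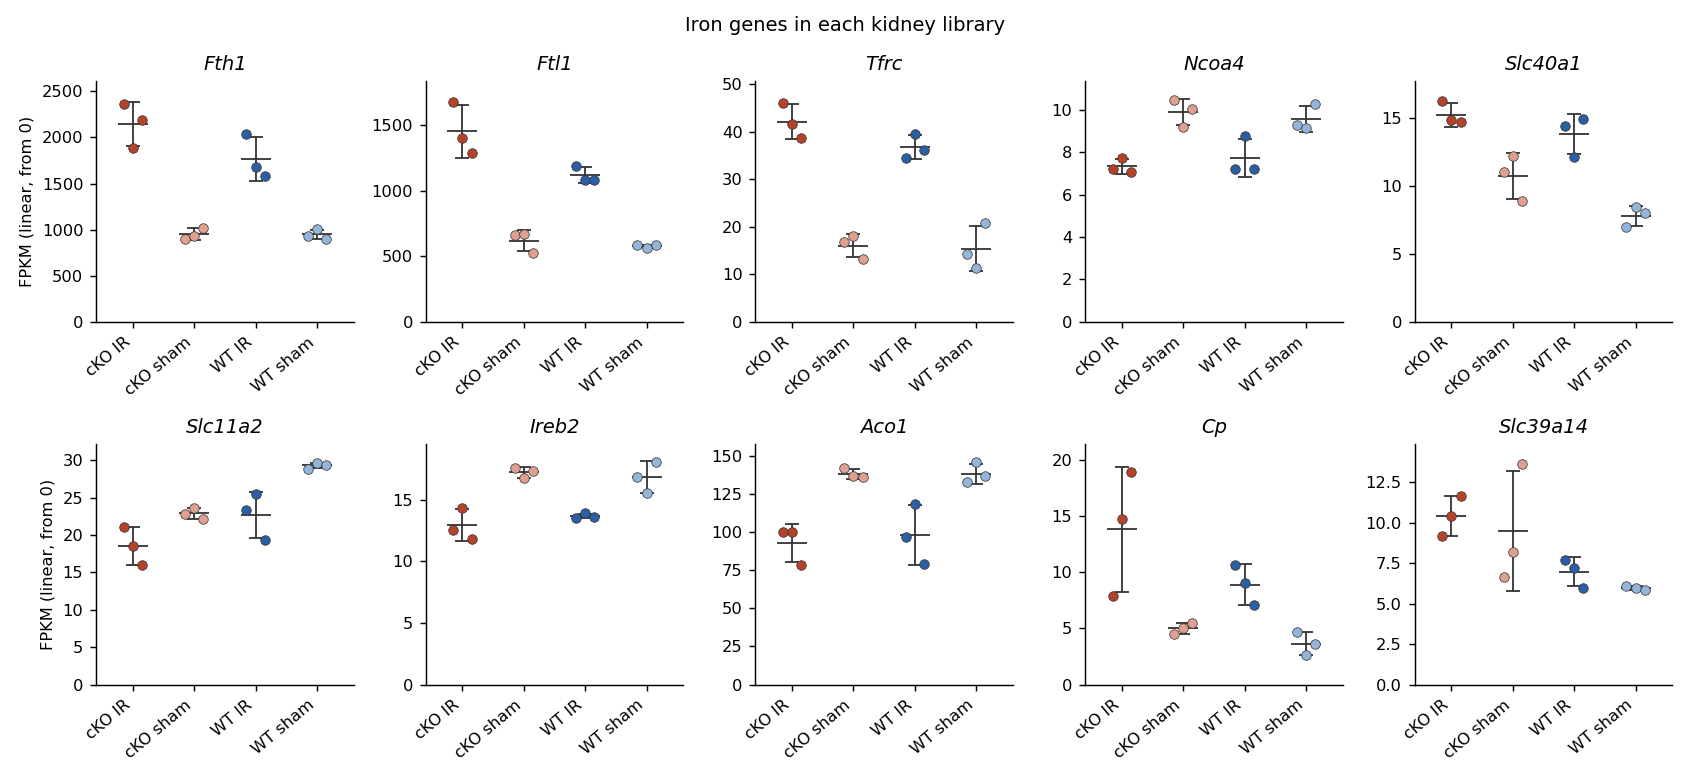
FPKM of the 10 iron genes in each library (points), with the group mean and SD (bars, n = 3), on linear axes from 0. The IR libraries lie apart from the sham libraries of their genotype for all genes but Slc39a14, with Fth1 between 1577 and 2364 FPKM after IR and between 902 and 1022 FPKM after sham surgery.

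Storage genes were the most abundant of the 10. Fth1 (ENSMUSG00000024661, chromosome 19, 9957962 to 9962462 as deposited, plus strand; the table names no build for its coordinates) had 2364, 1884 and 2190.0 FPKM in cKO IR, against 902, 929.8 and 1022 FPKM in cKO sham. In WT IR it had 2036, 1677 and 1577 FPKM, against 936, 1005 and 902 FPKM in WT sham. The IR libraries of both genotypes were all above all sham libraries, and the sham groups of both genotypes overlapped. The means were 2146 ± 243 FPKM in cKO IR and 951 ± 62.7 in cKO sham, and 1763 ± 241 FPKM in WT IR and 948 ± 52.2 in WT sham (SD, n = 3 each). The log2 difference was 1.17 in cKO (SE 0.13, adjusted p = 6.4e-05) and 0.89 in WT (SE 0.13, adjusted p = 0.000597).

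The light chain moved by nearly the same amount. Ftl1 (ENSMUSG00000050708, chromosome 7, 45107368 to 45109308, minus strand) had 1677, 1404 and 1286 FPKM in cKO IR, against 662, 668 and 525 FPKM in cKO sham. The WT IR libraries had 1192, 1083 and 1087 FPKM, against 583, 567 and 585 FPKM in WT sham. Again no IR library reached down to a sham library. Its log2 difference was 1.23 in cKO (SE 0.13, adjusted p = 4.08e-05) and 0.95 in WT (SE 0.13, adjusted p = 0.00037).

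The ratio of the chains varied little between the groups. Fth1 over Ftl1 in FPKM was 1.48 ± 0.192 in cKO IR and 1.57 ± 0.328 in cKO sham, and 1.57 ± 0.129 in WT IR and 1.64 ± 0.119 in WT sham (SD, n = 3 each). The differences between these means were smaller than the SD of at least one of the groups. The level of the ratio depends on gene length: the deposited length of Fth1 is 3469 bases, while its transcript 201 has 929, and for Ftl1 the lengths are 1340 and 968. With the transcript lengths the ratio was 4.005 in cKO IR and 4.23 in cKO sham, and 4.23 in WT IR and 4.42 in WT sham. Together both chains took 1.07% ± 0.0813 of the summed FPKM in cKO IR and 0.454% ± 0.0126 in cKO sham, and 0.902% ± 0.116 in WT IR and 0.412% ± 0.0185 in WT sham. By mean FPKM among the tested genes, Fth1 ranked 11 in cKO IR and 22 in cKO sham, and 12 in WT IR and 26 in WT sham.

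Near-identical copies make the ferritin and Ncoa4 values uncertain, since the counting of reads that match several genes is not given in the sources used here. Ftl1-ps1, listed as protein coding, had 34.1 to 47.7 FPKM in cKO IR and 13.4 to 17.2 in cKO sham, and 23.3 to 31.0 FPKM in WT IR and 13.9 to 15.9 in WT sham. It rose as Ftl1 did, by 1.27 in cKO (adjusted p = 6.16e-05) and 0.80 in WT (adjusted p = 0.00156) on the log2 scale. The Fth1 copies Fth1-ps and Fth-ps3 were at 0 in all libraries, and Fth-ps2 was at most 0.626 FPKM.

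Ncoa4, the cargo receptor that takes ferritin to lysosomes, moved opposite to ferritin. Ncoa4 (ENSMUSG00000056234, chromosome 14, 31881822 to 31901812, plus strand) had 7.20, 7.75 and 7.09 FPKM in cKO IR, against 10.5, 9.22 and 10.0 FPKM in cKO sham. In WT IR it had 7.20, 8.76 and 7.22 FPKM, against 9.30, 9.17 and 10.3 FPKM in WT sham. The groups did not overlap in either genotype, although WT IR 2 came close to the WT sham libraries. It fell by 0.39 on the log2 scale in cKO (SE 0.08, adjusted p = 0.00332) and by 0.28 in WT (SE 0.08, adjusted p = 0.0213). The WT call was lost without WT sham 3 (adjusted p = 0.0829), WT IR 1 (0.08) or WT IR 3 (0.0734), with only the groups compared (0.0655) and with plain library totals (0.129). Its processed pseudogene Ncoa4-ps had 6.68 to 7.73 FPKM in cKO IR and 9.52 to 10.8 in cKO sham, and 6.38 to 8.34 FPKM in WT IR and 8.15 to 11.9 in WT sham, levels like those of Ncoa4 itself.

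Among the uptake genes, the transferrin receptor rose while DMT1 fell. Tfrc (ENSMUSG00000022797, chromosome 16, 32427738 to 32451612, plus strand) had 46.0, 41.7 and 38.7 FPKM in cKO IR, against 16.7, 18.1 and 13.3 FPKM in cKO sham. The WT IR libraries had 34.6, 39.6 and 36.2 FPKM, against 14.2, 11.3 and 20.8 FPKM in WT sham. All IR libraries lay above all sham libraries, with the widest spread in WT sham. Its log2 difference was 1.35 in cKO (SE 0.18, adjusted p = 0.000177) and 1.24 in WT (SE 0.18, adjusted p = 0.000527). Ferritin and Tfrc messages, which carry IREs at opposite ends, thus rose in the same libraries.

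Slc11a2 (ENSMUSG00000023030, chromosome 15, 100285779 to 100322953, minus strand), which encodes the iron importer of the endosome and of the apical membrane, had 21.1, 18.6 and 15.9 FPKM in cKO IR, against 22.8, 23.7 and 22.1 FPKM in cKO sham. In WT IR it had 23.3, 25.5 and 19.4 FPKM, against 28.9, 29.7 and 29.4 FPKM in WT sham. Within each genotype the sham libraries lay close together and the IR libraries all lay below them, while WT IR 1 and 2 were within or above the cKO sham range. It fell by 0.30 on the log2 scale in cKO (SE 0.11, adjusted p = 0.0433) and by 0.36 in WT (SE 0.11, adjusted p = 0.0225). The cKO call lay near the threshold and was lost in 11 of 20 alternatives, with adjusted p up to 0.152 without cKO IR 3. The WT call was lost without WT sham 1, 2 or 3 (0.0512, 0.0611 and 0.0582) or WT IR 3 (0.0805), and with plain library totals (0.0657).

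Slc39a14 (ENSMUSG00000022094, chromosome 14, 70540918 to 70588874, minus strand), which encodes a zinc transporter that also imports iron not bound to transferrin, was the one member not called after IR. It had 9.14, 10.4 and 11.6 FPKM in cKO IR, against 6.62, 8.18 and 13.6 FPKM in cKO sham, and the groups overlapped. The WT IR libraries had 7.68, 7.22 and 5.95 FPKM, against 6.09, 5.94 and 5.86 FPKM in WT sham, also with overlap. The log2 difference was 0.17 in cKO (95% interval −0.26 to 0.61, adjusted p = 0.489) and 0.18 in WT (−0.25 to 0.62, adjusted p = 0.48). The library cKO sham 3 decided the first value: without it the difference was 0.44 and passed (adjusted p = 0.0182), and without cKO sham 1 it was −0.03 (0.906).

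Both export genes rose. Slc40a1 (ENSMUSG00000025993, chromosome 1, 45947228 to 45965683, minus strand), which encodes ferroportin, had 16.3, 14.9 and 14.7 FPKM in cKO IR, against 11.0, 12.3 and 8.89 FPKM in cKO sham. In WT IR it had 14.4, 12.2 and 14.96 FPKM, against 6.98, 8.44 and 8.00 FPKM in WT sham. The IR libraries of both genotypes overlapped, while every cKO sham library lay above every WT sham library. The log2 difference was 0.48 in cKO (SE 0.12, adjusted p = 0.00584) and 0.75 in WT (SE 0.12, adjusted p = 0.00072).

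Cp (ENSMUSG00000003617, chromosome 3, 20011218 to 20063309, plus strand) had 7.90, 14.7 and 18.9 FPKM in cKO IR, against 4.53, 4.998 and 5.49 FPKM in cKO sham. The WT IR libraries had 10.6, 9.07 and 7.05 FPKM, against 4.67, 2.66 and 3.57 FPKM in WT sham. The cKO IR libraries spread most of all, 13.8 ± 5.56 FPKM (SD, n = 3), yet each lay above the cKO sham libraries. Its log2 difference was 1.23 in cKO (SE 0.27, adjusted p = 0.00294) and 1.10 in WT (SE 0.27, adjusted p = 0.00715).

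Both iron regulatory proteins fell. Aco1 (ENSMUSG00000028405, chromosome 4, 40143081 to 40198338, plus strand), whose protein is a cytosolic aconitase when it holds an iron-sulfur cluster and IRP1 when it does not, had 99.8, 99.9 and 78.4 FPKM in cKO IR, against 142, 137 and 136 FPKM in cKO sham. In WT IR it had 96.5, 118 and 79.3 FPKM, against 133, 146 and 137 FPKM in WT sham. Each IR library lay below each sham library. It fell by 0.58 on the log2 scale in cKO (SE 0.14, adjusted p = 0.00551) and by 0.51 in WT (SE 0.14, adjusted p = 0.0135).

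Ireb2 (ENSMUSG00000032293, chromosome 9, 54771073 to 54819814, plus strand), whose protein IRP2 is degraded when iron is plentiful, had 12.6, 14.4 and 11.8 FPKM in cKO IR, against 17.6, 16.8 and 17.4 FPKM in cKO sham. The WT IR libraries had 13.5, 13.9 and 13.6 FPKM, against 16.9, 15.6 and 18.1 FPKM in WT sham. The sets of libraries did not overlap in either genotype. It fell by 0.39 on the log2 scale in cKO (SE 0.08, adjusted p = 0.00194) and by 0.28 in WT (SE 0.08, adjusted p = 0.0161), and the WT call was lost without WT sham 3 (adjusted p = 0.0672) and with plain library totals (0.17). Aco1 over Ireb2 in FPKM was 7.17 ± 0.685 in cKO IR and 8.01 ± 0.169 in cKO sham, and 7.15 ± 1.35 in WT IR and 8.26 ± 0.970 in WT sham (SD, n = 3 each), so the message of IRP1 was the more abundant per length in every group.

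**Figure D2:**
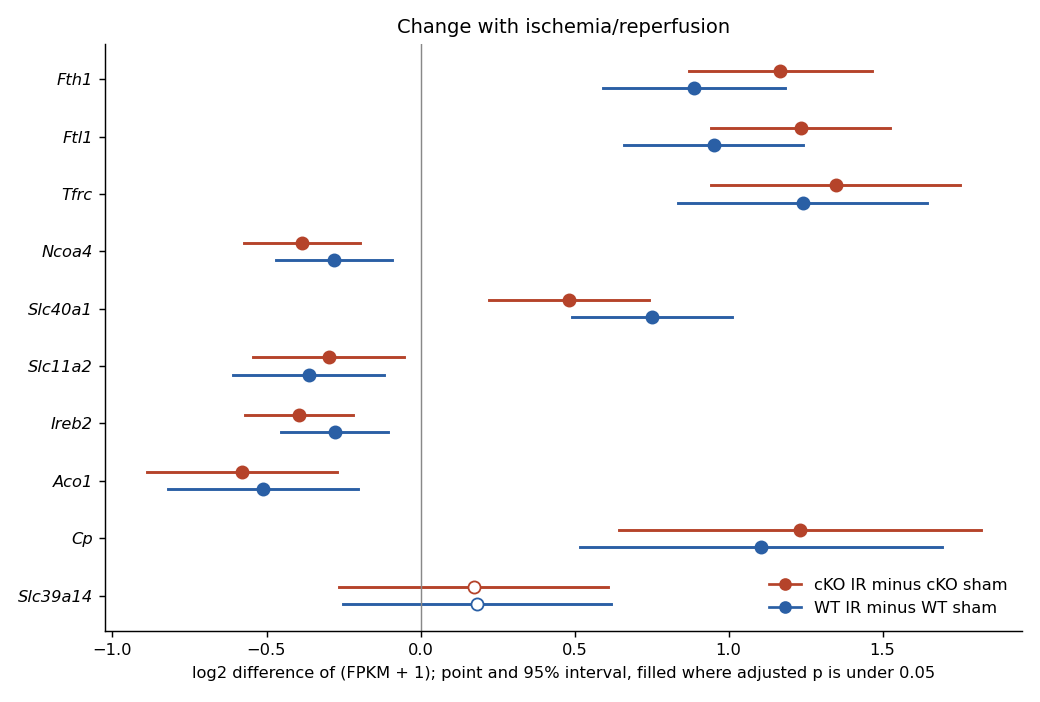
Log2 difference in (FPKM + 1) after IR for each iron gene in cKO (red) and WT (blue), with its 95% interval from limma; filled points have an adjusted p under 0.05. The 5 genes that rose and the 4 that fell did so in both genotypes, and the intervals of both genotypes overlap for every gene.

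These are values of whole kidney, in which fewer cells of a type and less RNA per cell cannot be told apart. Other cell types hold iron genes too, and their markers moved with IR. The 12 macrophage markers, of cells that recycle iron and use ferroportin and ferritin, summed to 89.0 to 120 FPKM in cKO IR and 51.3 to 77.3 in cKO sham, and to 46.6 to 115 FPKM in WT IR and 51.3 to 71.5 in WT sham. Of the 8 tested, 3 were higher and 1 lower in cKO IR, and 2 were higher and 1 lower in WT IR. Cd68 and Cd14 were higher in both genotypes and Lyz2 in cKO, while Csf1r was lower in both. Adgre1, C1qa, C1qb and C1qc were not called. The median log2 difference of the 8 was −0.32 in cKO and 0.14 in WT, so the sums do not stand for all the markers. The 7 markers of red cells and reticulocytes, which use the transferrin receptor, summed to 65.3 to 224 FPKM in cKO IR and 205 to 278 in cKO sham, and to 49.9 to 232 FPKM in WT IR and 290 to 914 in WT sham. The 914 was WT sham 3 alone, beside 323 in WT sham 1 and 290 in WT sham 2. Of 6 tested, 6 were lower in WT IR and 1 in cKO IR. That 1 was Slc4a1, and the hemoglobin genes and Alas2 were not called in cKO. Slc4a1 did not share the high value of WT sham 3. It had 7.51, 8.38 and 8.24 FPKM in WT sham 1, 2 and 3, where Hba-a1 had 141, 120 and 403. The fall of Slc4a1 is therefore not read as a fall of red cells. Of the 12 proximal tubule markers, 11 were lower in cKO IR and 10 in WT IR. The 8 neutrophil markers summed to 16.6 to 24.1 FPKM in cKO IR and 2.17 to 2.87 in cKO sham, and to 9.90 to 46.7 FPKM in WT IR and 1.33 to 2.14 in WT sham. The 46.7 was WT IR 3 alone, beside 14.2 in WT IR 1 and 9.90 in WT IR 2. Most of each sum was S100a8 and S100a9. Of 3 tested, 3 were higher in cKO IR and 2 in WT IR, where Retnlg was not called. The 7 liver cell markers, of the main source of plasma ceruloplasmin, summed to 122 to 249.9 FPKM in cKO IR and 568 to 779 in cKO sham, and to 171 to 513 FPKM in WT IR and 789.9 to 962 in WT sham, with 2 of 5 tested lower in cKO IR and 3 of 5 lower in WT IR. Most of that sum was Cyp2e1, which kidney tubules also express. Ttr was also called lower in both genotypes and Apoa2 in WT, while Alb and Serpina1a were not called. The part of these cell types in the iron gene values was not tested.

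None of the 10 genes was called between the genotypes. For cKO sham against WT sham, 1.10% of all tested genes were called (0.847% higher, 0.256% lower), and 0 of the 10 iron genes, of which 3 had an unadjusted p under 0.05, as had 11.4% of all tested genes. In these 3 the sham groups did not overlap, which held for 25.1% of all tested genes. Slc40a1 was 10.7 ± 1.71 FPKM in cKO sham and 7.81 ± 0.752 in WT sham (log2 difference 0.41, 95% interval 0.15 to 0.67, adjusted p = 0.165). Slc11a2 was 22.9 ± 0.759 FPKM in cKO sham and 29.3 ± 0.395 in WT sham (−0.34, −0.59 to −0.10, adjusted p = 0.233), and passed with only the sham groups in the fit (adjusted p = 0.032). Slc39a14 was 9.48 ± 3.68 FPKM in cKO sham and 5.97 ± 0.117 in WT sham (0.53, 0.10 to 0.97, adjusted p = 0.308; SD, n = 3 each throughout), and the difference was 0.26 without cKO sham 3, the library at 13.6 FPKM (adjusted p = 0.565). Each cKO sham library thus had more ferroportin and Slc39a14 message and less Slc11a2 message than each WT sham library, without a call. Fth1 and Aco1 lay closest to no difference, with intervals of −0.29 to 0.30 and −0.31 to 0.31.

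For cKO IR against WT IR, limma called 0 of all tested genes (0.00%), with 1926 at an unadjusted p under 0.05, and so none of the 10. The libraries of the groups did not overlap for 16.0% of all tested genes and for 2 of the 10. Ftl1 was 1456 ± 201 FPKM in cKO IR and 1121 ± 62.2 in WT IR (SD, n = 3 each), with every cKO IR library above every WT IR library (log2 difference 0.37, 95% interval 0.08 to 0.66, adjusted p = 0.242). Slc39a14, at 10.4 ± 1.24 FPKM in cKO IR and 6.95 ± 0.896 in WT IR, did not overlap either (0.52, 0.09 to 0.96, adjusted p = 0.258). Slc11a2 had a difference of −0.28 (−0.52 to −0.04, adjusted p = 0.271), Fth1 of 0.29 (−0.01 to 0.58, adjusted p = 0.348) and Cp of 0.52 (−0.07 to 1.11, adjusted p = 0.39), with overlapping libraries in all 3. The value of Cp rested on single libraries, at 0.27 without cKO IR 3 (adjusted p = 0.636) and 0.85 without cKO IR 1 (0.263). Without cKO IR 3 that of Slc11a2 was −0.18 (0.45), and with sample weights that of Fth1 was 0.02 (0.937). These intervals still include differences of some size, so the values do not show that the genotypes were alike.

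The interaction, the IR effect in cKO minus the IR effect in WT, was called for 0.878% of all tested genes and for 0 of the 10. Its values for the ferritin chains were 0.28 for Fth1 (95% interval −0.14 to 0.70, adjusted p = 0.54) and 0.28 for Ftl1 (−0.13 to 0.69, adjusted p = 0.529). The value for Slc40a1 was −0.27 (−0.64 to 0.10, adjusted p = 0.498); in that gene the sham level was the higher one in cKO. With sample weights these values were 0.02 for Fth1, 0.16 for Ftl1 and −0.41 for Slc40a1. Leaving out a library moved Ftl1 to 0.17 (cKO sham 3) or 0.18 (cKO IR 1), and Slc40a1 to −0.18 (cKO sham 2). The other 7 genes lay between −0.11 for Ireb2 and 0.13 for Cp.

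**Figure D3:**
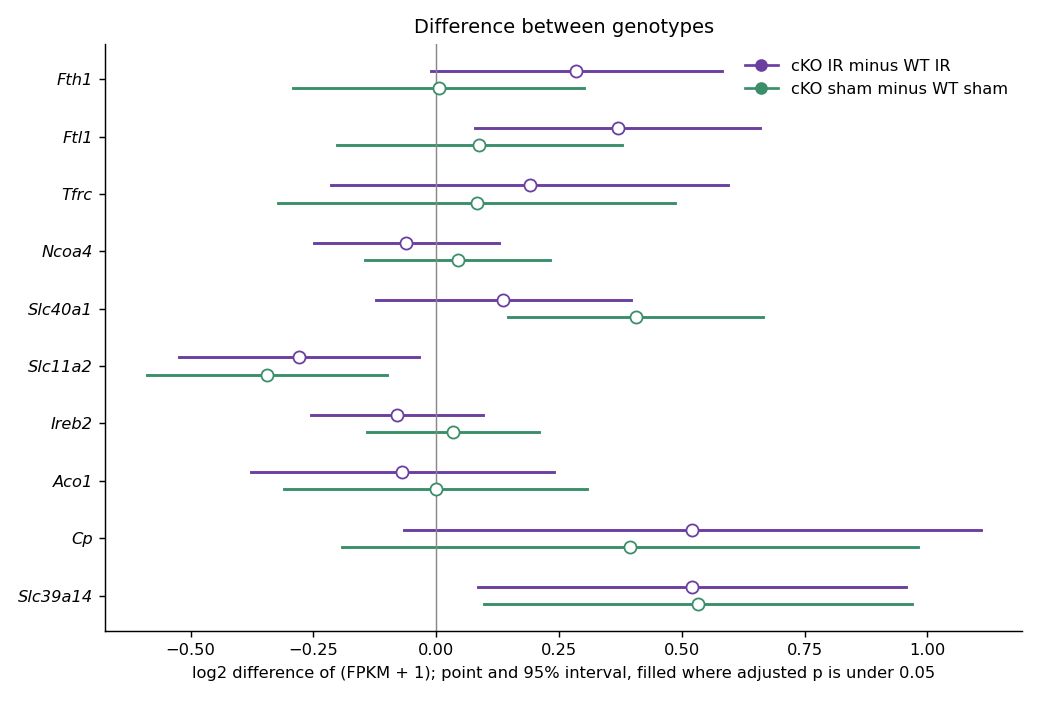
Log2 difference in (FPKM + 1) between genotypes for each iron gene after IR (purple) and after sham surgery (green), with its 95% interval from limma. All points are open because no adjusted p is under 0.05; the intervals of Slc11a2 and Slc39a14 lie on 1 side of 0 in both comparisons.

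A further 5 lists cover the rest of iron and heme handling, and they moved in both directions after IR. Of 16 tested genes of other iron transport, reduction and delivery, 5 rose and 8 fell in cKO IR and 4 rose and 8 fell in WT IR, with medians of −0.15 and −0.23. Lcn2, which encodes a carrier of iron-binding siderophores and is also a marker of tubule injury, had the largest rise of the list, 6.69 in cKO (adjusted p = 1.64e-07) and 5.66 in WT (adjusted p = 5.95e-07). The metalloreductases Steap1 (2.77 in cKO, adjusted p = 1.39e-05, and 2.44 in WT, 5.5e-05) and Steap2 (1.47 in cKO, 5.74e-05, and 1.14 in WT, 0.000477) rose as well. Heph, which encodes hephaestin, a membrane-bound relative of ceruloplasmin, fell by 0.76 in cKO (adjusted p = 0.000177) and by 0.41 in WT (0.00934, or 0.0513 with plain library totals), where Cp rose. Trf, which encodes transferrin, had values of 0.05 in cKO (adjusted p = 0.856) and −0.05 in WT (0.84).

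Of 13 tested genes of hepcidin and its control, 4 rose and 1 fell in cKO IR, 2 rose and 0 fell in WT IR, and the medians were 0.08 and 0.11. Bmp6, which encodes the ligand that raises hepcidin in liver, rose by 1.44 in cKO (adjusted p = 5.98e-05) and by 0.70 in WT (0.00592), and its receptor Acvr1 rose by 0.47 (0.00974) and by 0.64 (0.00238). Smad1, a transducer of this signal, rose in cKO (0.69, adjusted p = 0.00123) and had a value of 0.29 in WT (0.0973). Hamp, the gene of hepcidin itself, did not reach the filter.

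A list of 14 genes covered IRP turnover, ferritin autophagy, other IRE-bearing messages and the regulators Zfp36, Zfp36l1, Bach1 and Nfe2l2. Of these, 2 rose and 3 fell in cKO IR and 3 rose and 3 fell in WT IR, with medians of −0.06 and −0.12. The 2 that rose in cKO were the regulators Nfe2l2 and Zfp36l1, which rose in WT together with Pfn2. Fbxl5, which encodes the iron sensor that has IRP2 degraded, had values of 0.07 in cKO (adjusted p = 0.587) and −0.12 in WT (0.392). Epas1, whose message carries an IRE and encodes HIF-2 alpha, fell by 0.83 in cKO (0.00314) and by 0.86 in WT (0.00363). Nfe2l2, which encodes NRF2, rose by 0.95 in cKO (3.28e-05) and by 0.56 in WT (0.00132), and Zfp36l1, which encodes an RNA-decay factor, rose by 2.15 in cKO (3.62e-05) and by 1.19 in WT (0.00201).

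Of 21 tested heme genes, 6 rose and 5 fell in cKO IR and 6 rose and 7 fell in WT IR, with medians of 0.05 and −0.17. Hmox1, which encodes the heme oxygenase that frees iron from heme, rose by 3.42 in cKO (adjusted p = 2.18e-05) and by 2.68 in WT (0.000184). The heme transporter Slc48a1 rose by 0.89 in cKO (1.45e-05) and by 0.46 in WT (0.00106), while Flvcr2 fell by 1.84 (0.000121) and by 1.66 (0.000422), and Slc46a1 fell by 0.76 (0.00088) and by 0.84 (0.000805). Alas2, the first enzyme of heme synthesis in red cell precursors and a red cell marker, fell by 1.27 in WT (0.0262), a call lost without WT sham 3 (−0.79, adjusted p = 0.0851) or WT IR 1 (0.0938) and with only the groups compared (0.0566) or no filter (0.0628), and had −0.48 in cKO (0.339).

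Of 26 tested genes of iron-sulfur cluster assembly, 5 rose and 6 fell in cKO IR and 4 rose and 7 fell in WT IR, with medians of −0.07 and −0.19. Nfs1, the cysteine desulfurase that supplies the sulfur, fell by 0.69 in cKO (adjusted p = 0.000199) and by 0.77 in WT (0.000214). The cytosolic assembly factor Ciao1 fell by 0.42 in cKO (0.000912) and by 0.38 in WT (0.00233), while its partner Ciao2b rose by 0.27 (0.0101) and by 0.47 (0.000797). Nfu1, a mitochondrial scaffold, rose by 0.52 in cKO (0.000254) and by 0.35 in WT (0.00407). In none of the 5 lists was a gene called between the genotypes or in the interaction.

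**Figure D4:**
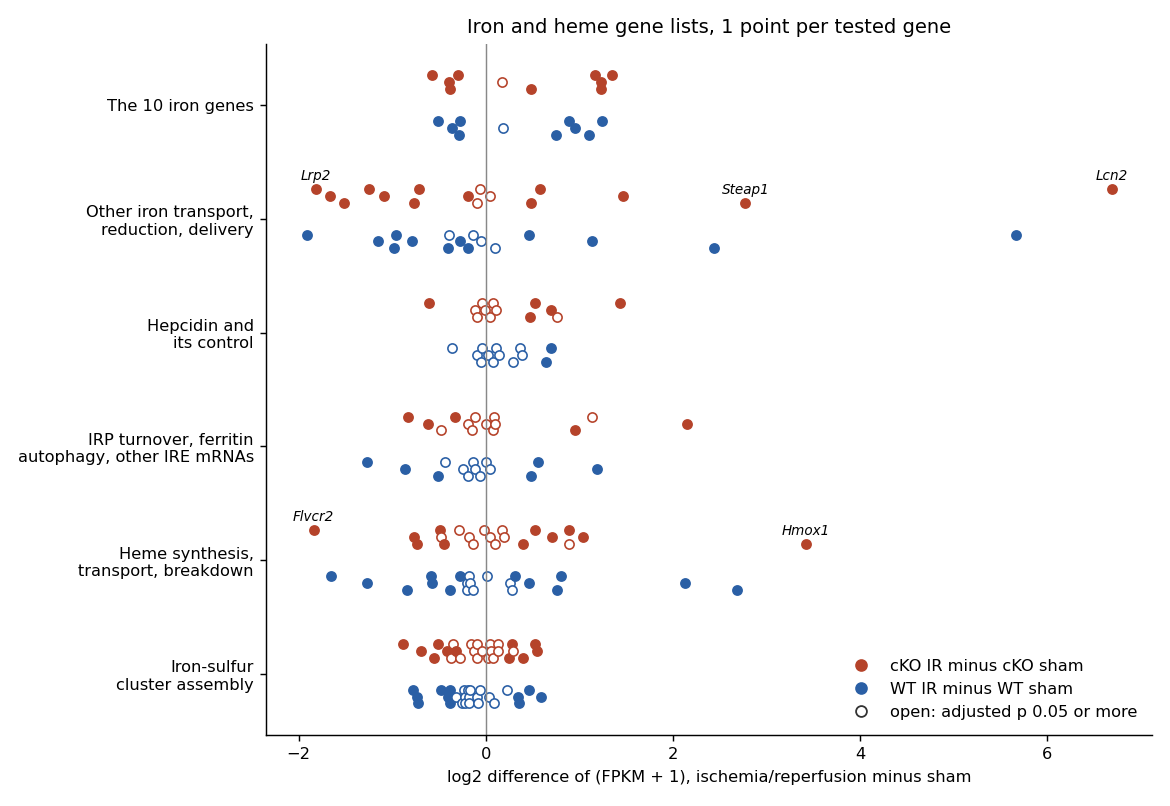
Log2 difference in (FPKM + 1) after IR for each tested gene of the 10 iron genes and the 5 further lists, in cKO (red) and WT (blue); open points did not pass the adjusted p of 0.05. Lcn2, Hmox1 and Steap1 lie far to the right, at 6.69, 3.42 and 2.77 in cKO, and every list has called genes on both sides of 0 in cKO.

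Over the 12 libraries, the genes most like each member in log2(FPKM + 1) were found by Pearson's r among all tested genes. The IR and sham libraries lie apart for most of these genes, so r describes mainly that split, and it is given without a test. Fth1 was most like Mapkapk2 (r = 0.988), Rpl18 (0.988) and Rps6 (0.988), and Ftl1 was most like Aprt (0.995), Rbpms (0.990) and Acat3 (0.987). The genes most like Tfrc were Qtrt2 (0.973), Zfp809 (0.970) and Pgam1 (0.970), and those most like Aco1 were Hgd (0.995), Iah1 (0.993) and Isoc2a (0.992). Slc40a1 was most like Zc3h7a (0.977), Ss18 (0.974) and Plin3 (0.962), and Ncoa4 was most like Esr1 (0.979), Osbpl1a (0.970) and Usp2 (0.970). The closest gene to Slc11a2 was Plscr4 (0.956), to Ireb2 Dnajc13 (0.971), to Cp Smug1 (0.972) and to Slc39a14 Mocos, at only 0.896. Between the members, r was 0.960 for Fth1 with Ftl1, 0.956 for Ftl1 with Tfrc, 0.937 for Ncoa4 with Ireb2 and −0.947 for Fth1 with Ireb2.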

How the data were processed

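RNA of 12 kidney libraries was sequenced, 3 in each of 4 groups, and groups were taken from the titles. The authors deposited 1 table of FPKM for 56748 genes, with gene lengths. Per the submitters' processing notes, reads were aligned with HISAT2 2.2.1, and builds mm8 and mm9 are named; how reads were counted, and on which annotation, is not given in the sources used here. Deposited FPKM times gene length gave whole multiples of 1 step per library (largest distance from a whole number 2.97e-09), from which reads were recovered. The analysis used log2(FPKM + 1) of genes whose mean over the 12 libraries was 1 FPKM or more. limma 3.58.1 (R 4.3.3) fitted group means with a trended prior (8 residual and 2.59 prior degrees of freedom); tests were two-sided, adjusted by Benjamini-Hochberg over all tested genes, and called under 0.05 in 5 comparisons. The fit was also run on simulated data with a small set of genes raised in WT IR only and the same spread in every library. These data have many changes in both directions and unequal libraries, so that run does not test the fit under their conditions.

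The named genes are the 10 members, Krt20, near-identical copies, the 3 genes most like each member, Trf, Lcn2, Hamp, Fbxl5, Hmox1, Alas2 and Heph, and per further list the called genes with the 3 smallest p after IR in each genotype, of which the text gives a part. Members and lists were chosen with earlier results of these data known. Alas2 is in 2 lists, Lrp2 and Cubn are also proximal tubule markers and Lcn2 an injury marker. Alternatives were another pseudocount, no filter, plain library totals, median-of-ratios scaling, sample weights, only the groups compared, a replicate block and each library left out.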

Additional observations from a re-analysis of the deposited data

How the results depend on the processing

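Fth1, Ftl1, Tfrc, Slc40a1, Aco1 and Cp kept direction and call after IR in all 20 alternatives in both genotypes, and so did Ncoa4 and Ireb2 in cKO. Leaving out 1 library gave 5605 to 6859 called genes for cKO IR against cKO sham and 4248 to 6047 for WT IR against WT sham, with 8 to 9 and 6 to 9 iron genes. The 6 came without WT sham 3, where Ncoa4, Slc11a2 and Ireb2 were lost. With plain library totals the WT comparison had 4168 higher and 1844 lower genes, against 2910 and 2514 as deposited, and its median moved by 0.13, while 6 iron genes remained called, without Ncoa4, Slc11a2 and Ireb2. For cKO sham against WT sham, 142 genes were called, 251 with only the groups compared, 763 with sample weights and 55 to 208 without 1 library (55 without WT sham 2, 56 without cKO sham 2, 68 without cKO sham 3 and 73 without WT sham 3). There 1 iron gene was called with only the groups compared (Slc11a2, −0.34, adjusted p = 0.032) and 2 with sample weights (Slc40a1, 0.48, 0.019, and Slc11a2, −0.33, 0.0173), and none without any 1 library. For cKO IR against WT IR, the 0 calls became 1 with a pseudocount of 0.1, 9 without the filter, 1 with plain totals, 188 with sample weights and 0 to 12 without 1 library (12 without WT IR 1), with 0 iron genes. The interaction had 113 calls, 847 with sample weights and 41 to 150 without 1 library (41 without WT sham 2, 43 without cKO sham 2, 58 without cKO IR 1, 62 without cKO sham 3, 71 without cKO sham 1 and 73 without WT sham 3), with 0 iron genes; it could not be fitted with only the groups compared. Trf after IR in WT reversed with sample weights, at 0.37 (adjusted p = 0.0437) against −0.05. The sample weights gave WT IR 1 a weight of 4.09, beside 0.240 for WT IR 2 and 0.380 for WT IR 3. For the changes listed here the cause was not tested. The ferritin ratio per transcript length was added after seeing the data and moved to 4.005, 4.23, 4.23 and 4.42 in cKO IR, cKO sham, WT IR and WT sham.

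With the replicate number as a block, the interaction had 73 calls, and no iron gene changed its call. Same-numbered libraries did not deviate together in all pairs of any comparison (correlations −0.123 to 0.401), so the numbers were not taken as pairs.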
